A study of Arabidopsis thaliana with 24 samples.

Results

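The genes carried by the mitochondrial genome of Arabidopsis thaliana were followed in whole seedlings by RNA sequencing. They were taken as every row of the deposited count table whose AGI code starts with ATMG and whose count, summed over 24 libraries, was at least 50. Of 146 ATMG rows among 33602 gene rows, 20 met this rule. Seedlings were 7 days old, of ecotype Col-0, grown in liquid medium, and carried an aequorin transgene in every group. Aequorin is a photoprotein that reports calcium. The groups were card1-1 with DMBQ, card1-1 with mock treatment, card1-2 with DMBQ, card1-2 with mock treatment, WT with DMBQ and WT with mock treatment, with 4 libraries in each. DMBQ (2,6-dimethoxy-1,4-benzoquinone) was given at 5 µM for 10 min, and mock seedlings received an equal volume of its solvent DMSO. WT means the aequorin line itself, and card1-1 and card1-2 are mutants in that line. Neither the lesions nor the promoter of the transgene are described in the sources used here. Nor is it said whether replicates were separate cultures, and p-values then cover only the spread between libraries, which may be technical.

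The mitochondrial genome of a flowering plant codes for a few subunits of the respiratory complexes and of ATP synthase, for proteins of cytochrome c maturation, and for part of the organelle's ribosomal RNAs, transfer RNAs and ribosomal proteins. Its genes are transcribed by RNA polymerases encoded in the nucleus, and most subunits of the respiratory chain are nuclear-encoded and imported. In plant mitochondria, a poly(A) tail generally marks an RNA for degradation. In Col-0 a large copy of the mitochondrial genome lies inserted near the centromere of chromosome 2, so that many mitochondrial sequences also occur in the nucleus. None of the 146 ATMG codes is a locus tag of the reference annotation used here (TAIR10.1), so the 20 genes are called by their codes and no role is given to any of them.

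The overlap between the genomes was measured on the reference. Of all 50-base words of the mitochondrial chromosome (367808 bp in TAIR10.1), 70.6% also occurred in a nuclear chromosome, 8.66% were repeated within the mitochondrial chromosome and 28.9% were found once in the whole reference. Chromosome 2 held 98.2% of the nuclear matches. Of 36 annotated mitochondrial genes with at least 100 bases of exon, 16 had every exon word in the nucleus as well. Another 9 had over 90% of their exon words found once: the ribosomal RNA genes rrn5, rrn18 and rrn26, the ATP synthase gene atp4, the cytochrome c oxidase gene cox1, the complex I genes nad4L and nad9, the cytochrome c maturation gene ccmB and the ribosomal protein gene rps3. A pair of stretches shows both cases, printed from the plus strand of the RefSeq mitochondrial chromosome of TAIR10.1 in lower case throughout, since no single base is singled out. The stretch in atp1, a subunit of ATP synthase, lies at MT:67098-67157 and has 1 exact nuclear match, at chr2:3363969-3364028 on the minus strand. The stretch in rrn26, the large ribosomal RNA, lies at MT:140797-140856 and has 0 exact nuclear matches.
atp1: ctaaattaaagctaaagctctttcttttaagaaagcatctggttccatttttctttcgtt
rrn26: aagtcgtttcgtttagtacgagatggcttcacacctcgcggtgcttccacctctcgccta
A read that aligns equally well to both genomes would be tallied in the table's line of alignments that were not unique and not in a gene row. The submitters' processing notes name TAIR10 and not TAIR10.1, and their mitochondrial sequence may differ from the one used here. How far this overlap sets which ATMG rows hold counts was not tested.

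**Figure D1:**
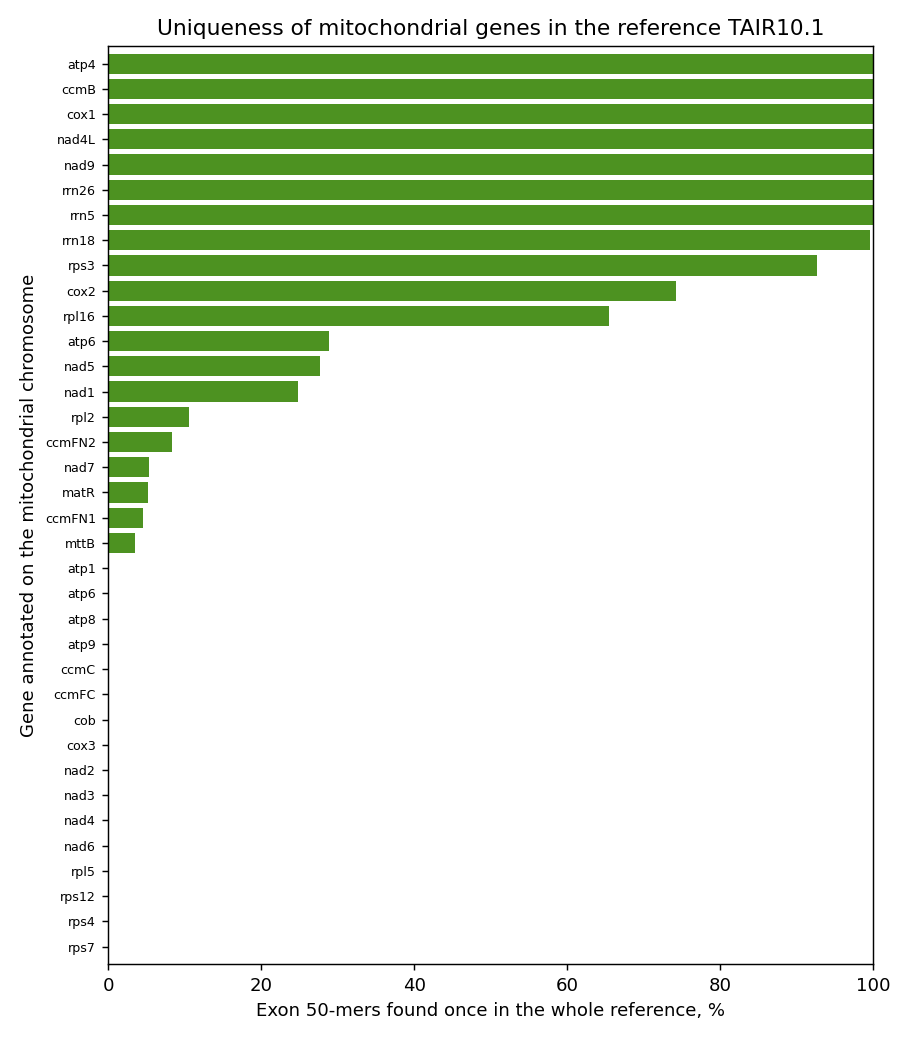
Share of exon 50-base words found once in the whole TAIR10.1 reference (x axis, %) for each of the 36 annotated mitochondrial genes with at least 100 bases of exon (y axis; atp6 is annotated at 2 places). 9 genes lie above 90% and 21 below 10%.

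Most ATMG rows held few counts. Of the 146 rows, 96 had no count in any library and 30 had between 1 and 49 in all, which came to 435 counts together. The 20 rows at or above the limit held 150246 counts, 99.7% of all ATMG counts. The row just below the limit had 48 counts and the one just above it had 59. A summed count of at least 50 was reached by 13.7% of ATMG rows and by 58.4% of all gene rows. Within the 20, ATMG00020 held 51.3% of the counts and ATMG01390 held 41.9%. These are counts and not counts per length, because the sources used here give no length for these codes, so transcript levels are not compared between them.

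Libraries held 2048246 to 9000207 gene counts. The share of counted records whose alignment was not unique ran from 17.3% to 66.5%, and it was above 55% in 3 libraries, card1-1 DMBQ replicates 1 and 4 and card1-2 DMBQ replicate 3. All 7 shoot markers and all 6 root markers were detected. Levels are given as CPM, the count scaled by TMM to a library total of 1e6. The summed shoot markers stood at 16760 to 20400 CPM in card1-1 DMBQ, against 7501 to 13820 in card1-1 mock. They stood at 15600 to 18390 CPM in card1-2 DMBQ against 11220 to 15890 in card1-2 mock, and at 13610 to 15490 CPM in WT DMBQ against 11220 to 14410 in WT mock. The summed root markers overlapped between DMBQ and mock in every genotype, within 19.4 to 61.9 CPM. CARD1 (AT5G49760), the receptor kinase gene the mutants are named for, ranged over 54.97 to 92.5 CPM in card1-1 with DMBQ and 48.5 to 60.5 CPM in its mock group. It ranged over 42.6 to 84.0 CPM in card1-2 with DMBQ and 44.6 to 71.5 CPM in its mock group, and over 77.0 to 92.9 CPM in WT DMBQ and 64.6 to 77.4 CPM in WT mock. The ranges of mutants and WT overlapped with DMBQ. In mock, the range of card1-1 lay below that of WT, and that of card1-2 overlapped it. Mock means were 53.9 CPM in card1-1, 52.7 in card1-2 and 71.3 in WT. With the overlaps and undescribed lesions, the transcript level does not check the genotype labels.

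The summed level of the 20 genes had its highest group means in the mutants with DMBQ. In card1-1 DMBQ they made up 0.440%, 0.212%, 0.386% and 0.890% of gene counts in replicates 1 to 4, against 0.0487%, 0.0663%, 0.183% and 0.0751% in card1-1 mock. In card1-2 DMBQ the share was 0.268%, 0.0890%, 0.818% and 0.255%, against 0.220%, 0.140%, 0.0922% and 0.123% in card1-2 mock. In WT DMBQ it was 0.0829%, 0.210%, 0.0853% and 0.0767%, against 0.0555%, 0.123%, 0.112% and 0.0677% in WT mock. The card1-1 libraries with DMBQ all lay above those without, while the groups overlapped in card1-2 and in WT. Counting error was small beside this spread: the 95% Wilson interval was 0.878% to 0.902% in the highest library and 0.0468% to 0.0507% in the lowest. Reads without molecular identifiers are not independent molecules, so these intervals, and the limits given for counts of 0, cover counting error only. In seedling RNA, fewer mitochondria or cells of a type and less RNA in each cannot be told apart.

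The mean share was 0.482% ± 0.289 in card1-1 DMBQ and 0.0934% ± 0.0610 in card1-1 mock (SD, n = 4 each), a ratio of 5.16. The exact two-sided permutation test over 70 splits gave p = 0.0286 for this difference, the smallest value that 4 against 4 libraries allow, and 0.143 after Benjamini-Hochberg adjustment over 5 comparisons. The share was 0.357% ± 0.318 in card1-2 DMBQ and 0.144% ± 0.0546 in card1-2 mock (SD, n = 4 each), a ratio of 2.48 (exact permutation p = 0.2, adjusted 0.333). It was 0.114% ± 0.0641 in WT DMBQ and 0.0897% ± 0.0332 in WT mock (SD, n = 4 each), a ratio of 1.27 (exact permutation p = 0.686, adjusted 0.857). The difference of 0.389 percentage points in card1-1 became 0.253 without DMBQ replicate 4, and that of 0.214 points in card1-2 became 0.0601 without DMBQ replicate 3. The WT difference of 0.0239 percentage points became -0.00808 without WT DMBQ replicate 2. Without DMBQ, the share in card1-1 was 1.04 times and in card1-2 1.60 times that in WT (exact permutation p = 0.914 and 0.171, adjusted 0.914 and 0.333). The card1-1 figure of 0.00369 percentage points became -0.0263 without card1-1 mock replicate 3, -0.00773 without WT mock replicate 1 and -0.00367 without WT mock replicate 4. The untreated card1-2 figure of 0.0542 points became 0.0287 without card1-2 mock replicate 1. No comparison of the share passed an adjusted p of 0.05.

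**Figure D2:**
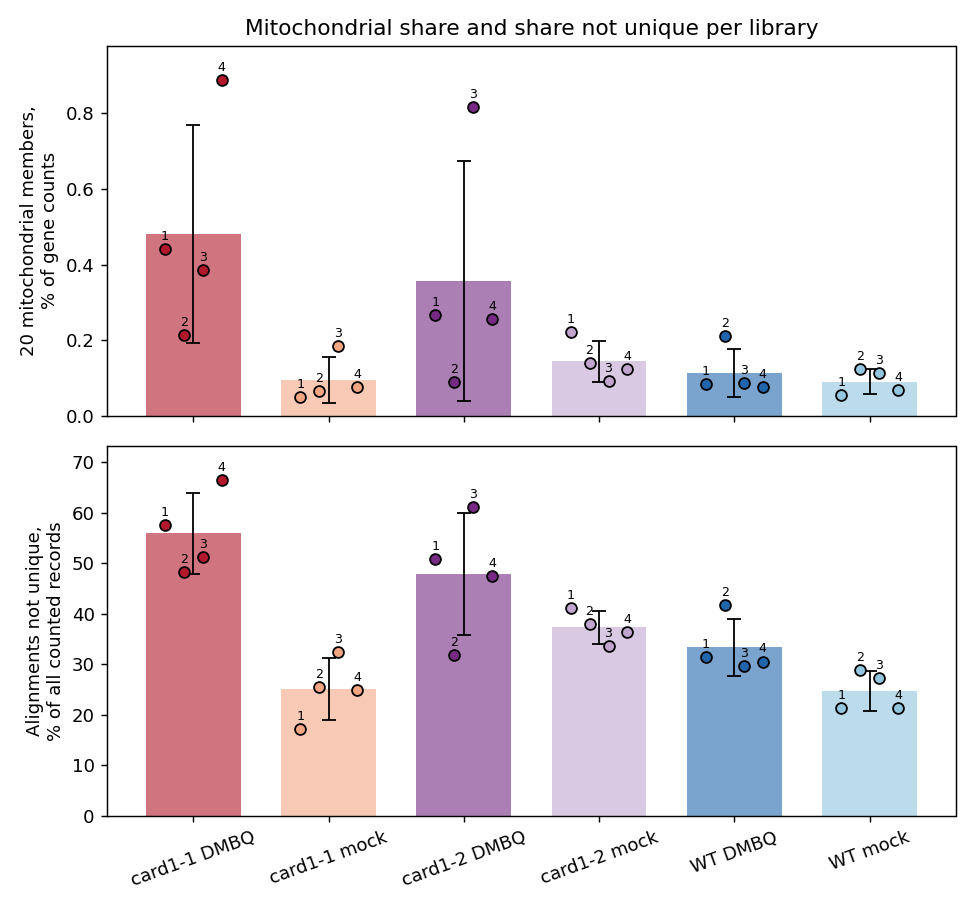
Share of gene counts held by the 20 mitochondrial genes (upper panel, %) and share of counted records whose alignment was not unique (lower panel, %) in each group. Points are single libraries with their replicate numbers, bars are group means and lines the SD (n = 4); the library with the highest value of both is card1-1 DMBQ replicate 4, at 0.890% and 66.5%.

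The share of alignments not unique moved with the mitochondrial share. It was 57.7%, 48.3%, 51.3% and 66.5% in card1-1 DMBQ, against 17.3%, 25.5%, 32.4% and 25.0% in card1-1 mock. In card1-2 DMBQ it was 50.9%, 31.9%, 61.1% and 47.4%, against 41.2%, 38.1%, 33.6% and 36.3% in card1-2 mock. WT DMBQ libraries had 31.5%, 41.8%, 29.7% and 30.6%, against 21.3%, 29.0%, 27.2% and 21.3% in WT mock. As for the mitochondrial share, the groups did not overlap in card1-1, and card1-2 DMBQ replicate 2 was the one DMBQ library of a mutant with a low value. WT differed from this order, since its groups did not overlap for the share not unique and did overlap for the mitochondrial share.

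Across the 24 libraries Pearson's r between both shares was 0.878 and Spearman's rho 0.945 (p = 1e-05 for each, the smallest that 100000 permutations can give; 1.25e-05 after adjustment over the 10 relations computed). Without the 2 libraries farthest from the median share not unique, card1-1 DMBQ replicate 4 and card1-2 DMBQ replicate 3, r was 0.915. With the group means removed and libraries permuted within groups, r was 0.853 and rho 0.791 (permutation p = 1e-05 for each, adjusted 1.25e-05). In the 12 DMBQ libraries r was 0.906 and rho 0.972 (permutation p = 1e-05 for each, adjusted 1.25e-05). In the 12 mock libraries r was 0.841 and rho 0.867 (permutation p = 0.0005 and 0.00055, unchanged by the adjustment). Only the relation with group means removed kept libraries within their groups. The other p-values of this paragraph come from shuffling across groups, and so also draw on differences between groups. Gene counts exclude alignments that were not unique, so the denominators of both shares are linked. With all counted records as the denominator of the mitochondrial share, r was 0.900. The plastid genes (133 ATCG rows) had r = 0.736 and rho = 0.675 with the share not unique (permutation p = 6e-05 and 0.00049, adjusted 6.67e-05 and 0.000544).

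Of libraries from different groups, 7 pairs lay within 1 percentage point of each other in the share not unique, and their mitochondrial shares differed by 1.05 to 2.21 times. WT DMBQ replicate 2 (41.8% not unique) had 0.210% and card1-2 mock replicate 1 (41.2%) had 0.220%. The share was 0.0890% in card1-2 DMBQ replicate 2 (31.9%) and 0.0829% in WT DMBQ replicate 1 (31.5%), but 0.183% in card1-1 mock replicate 3 (32.4%), which lay near both. It was 0.212% in card1-1 DMBQ replicate 2 (48.3%) and 0.255% in card1-2 DMBQ replicate 4 (47.4%), and 0.386% in card1-1 DMBQ replicate 3 (51.3%) and 0.268% in card1-2 DMBQ replicate 1 (50.9%). It was 0.0853% in WT DMBQ replicate 3 (29.7%) and 0.123% in WT mock replicate 2 (29.0%). The pairs are a description, set after the values were seen. The part of the share not unique in the difference between DMBQ and mock libraries was not tested. A fit with that share as a covariate is given below, with its limit.

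**Figure D3:**
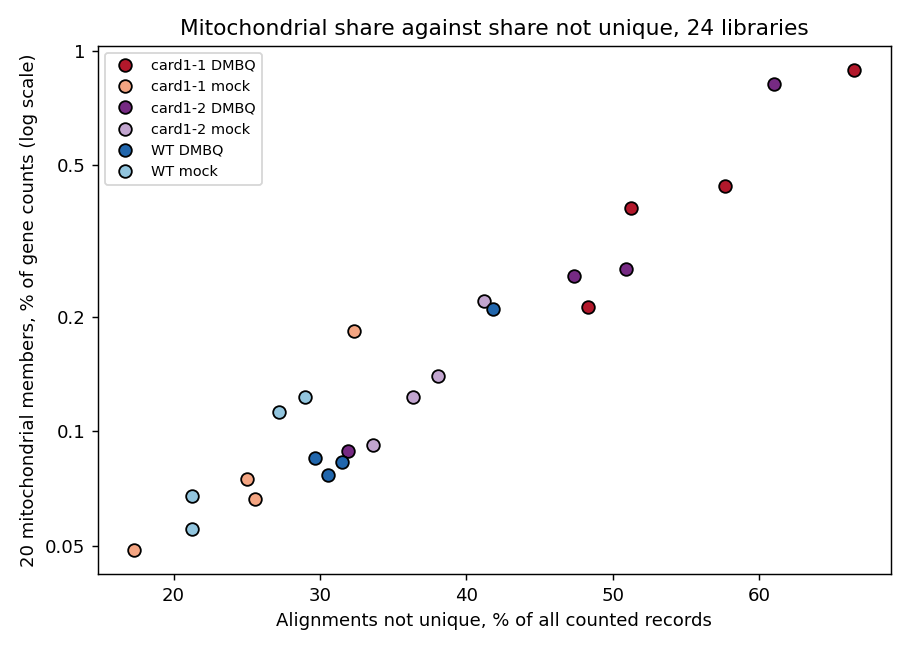
Share of gene counts held by the 20 mitochondrial genes (y axis, %, log scale) against the share of counted records whose alignment was not unique (x axis, %), with a point for each of the 24 libraries coloured by group. The highest point on both axes is card1-1 DMBQ replicate 4 (66.5%, 0.890%) and the lowest is card1-1 mock replicate 1 (17.3%, 0.0487%).

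ATMG00020, the gene with the highest counts, followed the summed share. It had 2622, 1000, 2154 and 4820 CPM in card1-1 DMBQ replicates 1 to 4, against 236, 308, 929 and 328 CPM in card1-1 mock. In card1-2 it had 1404, 447, 4648 and 1368 CPM with DMBQ, against 1162, 693, 426 and 631 CPM in mock. In WT it had 340, 991, 373 and 342 CPM with DMBQ, against 272, 616, 527 and 312 CPM in mock. In card1-1 the lowest DMBQ library lay just above the highest mock library, replicate 3, and in the other genotypes the groups overlapped. The share of all genes tested whose DMBQ and mock libraries are apart in card1-1 was not computed. Here and below, groups that are apart are therefore not read as particular to the mitochondrial genes. The log2 fold change was 2.56 (SE 0.67, edgeR adjusted p = 0.027) in card1-1, beside 1.43 (SE 0.64, edgeR adjusted p = 0.31) in card1-2. Without card1-2 DMBQ replicate 3 the card1-2 value was 0.56 (edgeR adjusted p = 0.766).

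ATMG01390 ran close to ATMG00020. Its level was 1570, 882, 1568 and 4030 CPM in card1-1 DMBQ, against 247, 249, 763 and 309 CPM in card1-1 mock. It was 1117, 374, 3599 and 1017 CPM in card1-2 DMBQ, against 1011, 587, 384 and 526 CPM in card1-2 mock. It was 387, 928, 403 and 360 CPM in WT DMBQ, against 222, 486, 472 and 268 CPM in WT mock. Again the groups did not overlap in card1-1 and overlapped in card1-2 and WT. Its log2 fold change was 2.36 (SE 0.64, edgeR adjusted p = 0.0312) in card1-1, beside 1.28 (SE 0.61, edgeR adjusted p = 0.348) in card1-2, where it was 0.42 (edgeR adjusted p = 0.826) without DMBQ replicate 3. Within a library the count of ATMG00020 was 0.879 to 1.67 times that of ATMG01390, and the mean ratio was 1.34 ± 0.240 in card1-1 with DMBQ against 1.12 ± 0.133 in mock (SD, n = 4 each). For card1-2 the mean ratio was 1.27 ± 0.0628 with DMBQ against 1.16 ± 0.0389 in mock, and for WT 0.956 ± 0.0806 with DMBQ against 1.19 ± 0.0670 in mock (SD, n = 4 each).

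ATMG01380 was the third gene past the threshold in card1-1, and its libraries stood in another order. It had 29.4, 62.3, 22.0 and 41.3 CPM in card1-1 DMBQ, against 14.4, 7.78, 7.77 and 15.9 CPM in card1-1 mock. In card1-2 it had 16.7, 127, 27.7 and 35.9 CPM with DMBQ, against 8.79, 18.3, 25.5 and 18.4 CPM in mock. In WT it had 20.8, 17.4, 13.1 and 17.6 CPM with DMBQ, against 12.98, 15.9, 7.65 and 8.47 CPM in mock. The groups were apart in card1-1 and overlapped in card1-2 and WT. The highest library in card1-1 was DMBQ replicate 2 and in card1-2 DMBQ replicate 2, each of which had the lowest share not unique of its group. Its log2 fold change was 1.74 (SE 0.51, edgeR adjusted p = 0.0412) in card1-1, beside 1.57 (SE 0.49, edgeR adjusted p = 0.109) in card1-2. Without card1-2 DMBQ replicate 2, the library at 127 CPM, the card1-2 value was 0.59 (edgeR adjusted p = 0.507).

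**Figure D4:**
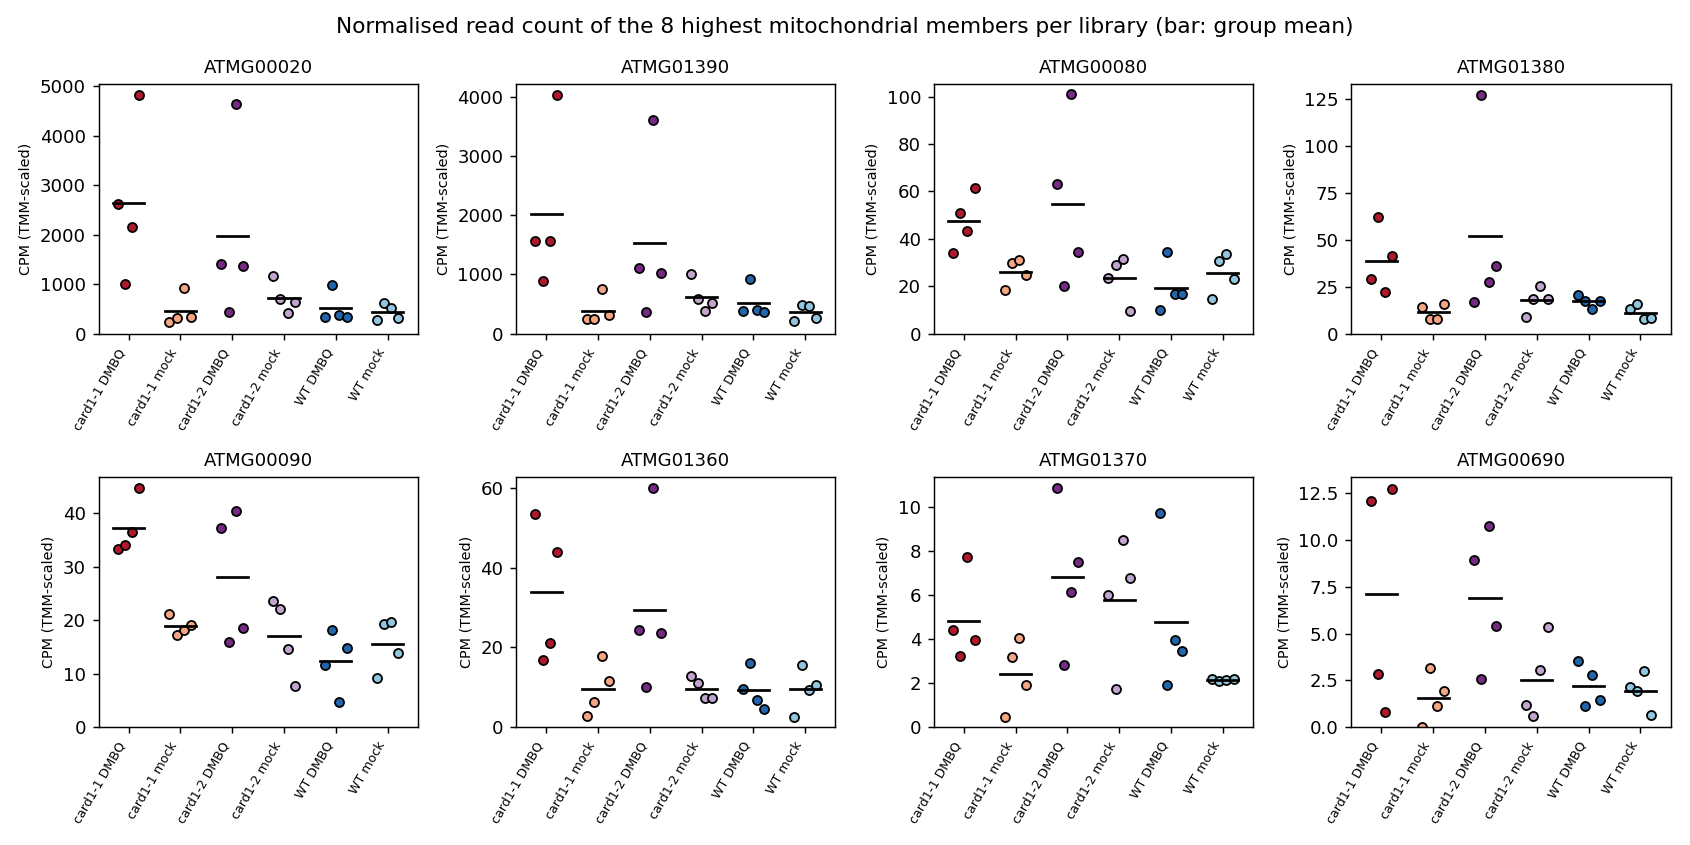
Normalised read count (y axis, TMM-scaled CPM, from 0) of the 8 mitochondrial genes with the highest mean CPM, in a panel each, with a point per library and a bar at the mean of each group of 4. In the panels of ATMG00020 and ATMG01390 the highest points are card1-1 DMBQ replicate 4 (4820 and 4030 CPM) and card1-2 DMBQ replicate 3 (4648 and 3599 CPM), and in that of ATMG01380 it is card1-2 DMBQ replicate 2 (127 CPM).

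The other 5 of the 8 highest genes did not pass the threshold in any comparison. ATMG00080 had 34.2, 51.0, 43.5 and 61.6 CPM in card1-1 DMBQ against 18.6, 29.7, 31.1 and 25.0 in card1-1 mock, with a log2 fold change of 0.87 (SE 0.43, edgeR adjusted p = 0.26). It had 63.2, 20.2, 101 and 34.4 CPM in card1-2 DMBQ against 23.6, 29.2, 31.6 and 9.69 in card1-2 mock, and 10.0, 34.5, 16.7 and 16.7 CPM in WT DMBQ against 14.7, 30.6, 33.6 and 23.2 in WT mock. Each card1-1 library with DMBQ lay above each without it, and card1-2 and WT overlapped. ATMG00090 had 33.4, 34.2, 36.6 and 44.9 CPM in card1-1 DMBQ against 21.1, 17.3, 18.1 and 19.2 in card1-1 mock (log2 fold change 0.97, SE 0.33, edgeR adjusted p = 0.0659). It had 37.2, 16.0, 40.5 and 18.6 CPM in card1-2 DMBQ against 23.6, 22.0, 14.6 and 7.75 in card1-2 mock, and 11.6, 18.2, 4.76 and 14.7 CPM in WT DMBQ against 9.13, 19.3, 19.7 and 13.8 in WT mock. Here too the groups were apart in card1-1 and overlapped elsewhere, again without a share over all genes to set beside it.

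ATMG01360 had 53.6, 16.9, 21.2 and 44.0 CPM in card1-1 DMBQ against 2.78, 6.34, 17.8 and 11.5 in card1-1 mock, with a log2 fold change of 1.85 (SE 0.59, edgeR adjusted p = 0.0636). It had 24.4, 9.95, 59.95 and 23.7 CPM in card1-2 DMBQ against 12.8, 11.2, 7.30 and 7.26 in card1-2 mock, and 9.47, 16.0, 6.74 and 4.62 CPM in WT DMBQ against 2.40, 15.6, 9.20 and 10.7 in WT mock. Its groups overlapped in all 3 genotypes. ATMG01370 had 4.41, 3.22, 7.73 and 3.96 CPM in card1-1 DMBQ against 0.464, 3.17, 4.07 and 1.92 in card1-1 mock (log2 fold change 1.03, SE 0.65, edgeR adjusted p = 0.399). It had 10.9, 2.81, 6.15 and 7.49 CPM in card1-2 DMBQ against 5.995, 1.72, 8.51 and 6.78 in card1-2 mock, and 9.74, 1.93, 3.97 and 3.46 CPM in WT DMBQ against 2.16, 2.09, 2.12 and 2.20 in WT mock. This gene rested on 2 to 36 counts in a library and its groups overlapped in every genotype. ATMG00690 had 12.1, 2.81, 0.813 and 12.8 CPM in card1-1 DMBQ, against 3.17, 1.11 and 1.92 in card1-1 mock replicates 2 to 4 and a count of 0 in replicate 1, which allows up to 0.696 CPM (log2 fold change 2.19, SE 0.82, edgeR adjusted p = 0.103). It had 8.92, 2.55, 10.8 and 5.39 CPM in card1-2 DMBQ against 1.20, 0.572, 3.04 and 5.33 in card1-2 mock, and 3.52, 1.103, 2.78 and 1.44 CPM in WT DMBQ against 2.16, 1.93, 2.97 and 0.628 in WT mock. Its groups overlapped in all 3 genotypes as well.

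The remaining 12 genes were low, with means over all libraries of 0.779 to 3.58 CPM. Of the 20 genes, 14 passed the filter on low counts and were tested, and ATMG00160, ATMG00650, ATMG00660, ATMG00670, ATMG01170 and ATMG01220 were not. A filter on counts keeps a low gene more easily where one group is high, so counts and medians over the 14 describe those genes and not the 20. Apart from ATMG00020 and ATMG01390, the other 18 genes together made up 0.0206% ± 0.00452 of gene counts in card1-1 DMBQ, against 0.00831% ± 0.00158 in card1-1 mock. They made up 0.0210% ± 0.00740 in card1-2 DMBQ against 0.00897% ± 0.00139 in card1-2 mock, and 0.00756% ± 0.00207 in WT DMBQ against 0.00791% ± 0.00209 in WT mock (SD, n = 4 each). For these 18 the mean was higher with DMBQ in both mutants and not in WT. The exact permutation test gave p = 0.0286 in each mutant, the smallest value it allows (adjusted 0.0714), and p = 0.886 in WT (adjusted 0.886). This sum was chosen after seeing the data. Whether its change differs between a mutant and WT was not tested, so no such difference is read from it. In card1-2 DMBQ replicate 2, ATMG01380 alone held 996 of the 1574 counts of the 18.

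Tested across all genes, 3 of the 14 tested members rose in card1-1 with DMBQ and none fell, by edgeR's quasi-likelihood test at an adjusted p under 0.05. Of all 17734 genes tested in that comparison, 6.72% passed in either direction and 3.55% rose. The 14 log2 fold changes ran from 0.87 to 3.45 with a median of 1.89, beside a median of -0.01 over all genes tested, and 9 of the 14 had an unadjusted p under 0.05. Here and below, shares over all genes are for adjusted p only. The share of all genes with an unadjusted p under 0.05 was not computed, so counts by unadjusted p have no such reference. The 14 genes come from the same libraries and are not separate evidence. The call rested on single libraries: 0 members passed without card1-1 DMBQ replicate 4, without card1-1 mock replicate 1 or without card1-1 mock replicate 2, and 1 passed without card1-1 DMBQ replicate 1 or without card1-1 mock replicate 4. With the share not unique as a covariate, the log2 fold changes of ATMG00020 and ATMG01390 turned to -1.12 and -1.17 (edgeR adjusted p = 0.0444 and 0.0429), that of ATMG01380 became 3.55 (edgeR adjusted p = 0.00493), and the median of the 14 was -0.71. In card1-1 the share not unique was 17.3% to 32.4% in mock and 48.3% to 66.5% with DMBQ. The covariate values thus extend a slope fitted over all libraries. They do not compare libraries at an equal share and show no lowering by DMBQ. Without the 3 libraries above 55% not unique, 1 member passed and the median was 1.19.

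In card1-2 with DMBQ, 0 of the 14 passed edgeR's test, where 2.2% of all genes did, 6 had an unadjusted p under 0.05 and DESeq2 called 2. All 14 log2 fold changes were above 0, as were 52.1% of those over all genes. They ran from 0.23 to 2.39 with a median of 1.44, beside 0.03 over all genes. With the share not unique as a covariate the median was 0.30, and without card1-2 DMBQ replicate 3, the highest library for ATMG00020 and ATMG01390, it was 0.66. In WT with DMBQ, 0 of the 14 passed, where 1.03% of all genes did, and 0 had an unadjusted p under 0.05 or were called by DESeq2. There 7 of the 14 log2 fold changes were above 0, as were 49.1% of those over all genes. The 14 ran from -1.79 to 1.15 with a median of 0.03, beside -0.01 over all genes.

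**Figure D5:**
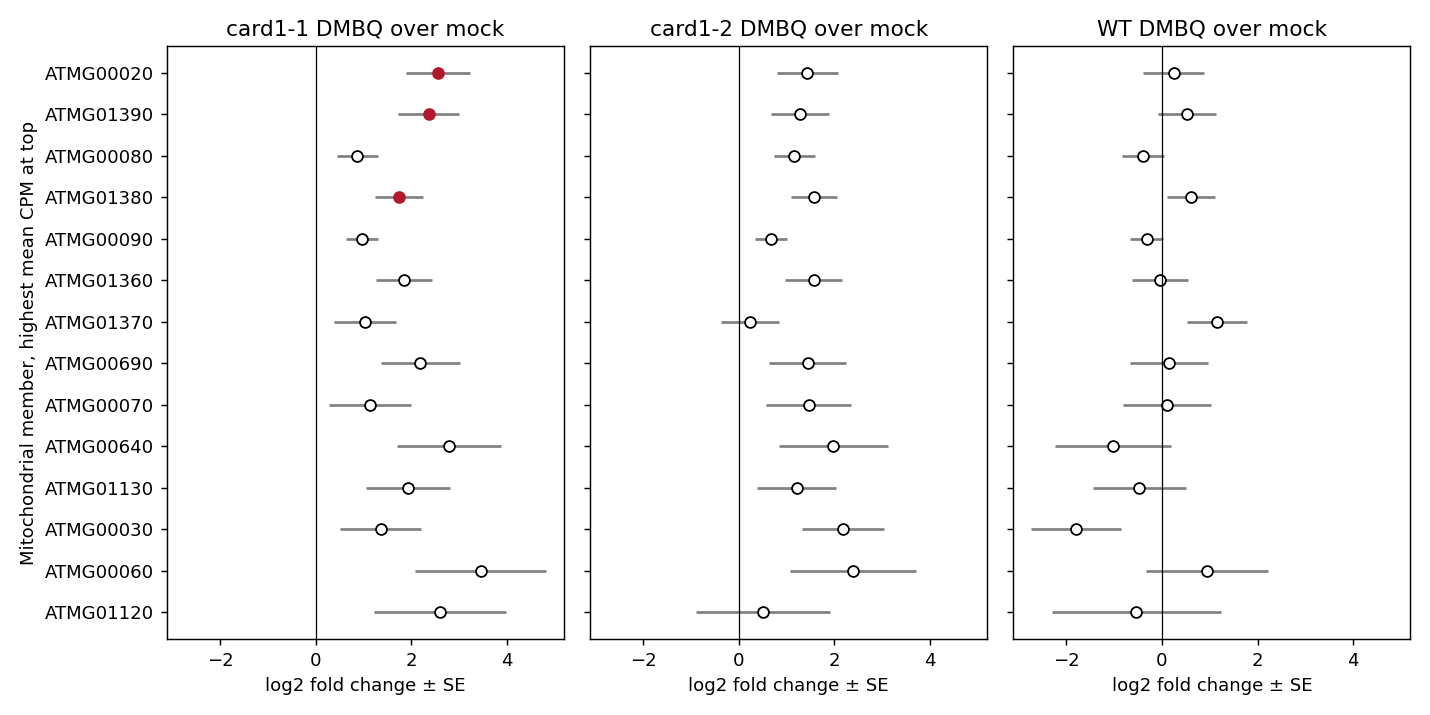
Log2 fold change with DMBQ over mock (x axis, with its SE) of the 14 mitochondrial genes tested, in card1-1, card1-2 and WT; filled points passed an edgeR adjusted p of 0.05. All 14 lie above 0 in card1-1 (0.87 to 3.45) and in card1-2 (0.23 to 2.39), and 7 do in WT (-1.79 to 1.15). Of all genes tested, 49.7%, 52.1% and 49.1% lie above 0, in that order. The filter keeps a low gene more easily where one group is high, and the 14 genes share their libraries.

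The difference of the response between each mutant and WT was tested as an interaction in the same edgeR fit. For card1-1 against WT, 0 of the 14 passed, where 0.0564% of all genes did; 7 had an unadjusted p under 0.05, and DESeq2 called 0. The differences in log2 fold change had a median of 1.97, and were 2.32 (SE 0.90, edgeR adjusted p = 0.401) for ATMG00020, 1.84 (SE 0.86, edgeR adjusted p = 0.517) for ATMG01390 and 1.13 (SE 0.71, edgeR adjusted p = 0.681) for ATMG01380. For card1-2 against WT, 0 passed, where 0.0282% of all genes did; 3 had an unadjusted p under 0.05, DESeq2 called 0, and the median was 1.33. A response of these genes that differs between a mutant and WT was thus not shown at this spread. Both differences use the same WT libraries.

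Without DMBQ, 0 of the 14 members passed edgeR's test in card1-1 against WT, where 0% of all genes did, and 0 had an unadjusted p under 0.05 or were called by DESeq2. In card1-2 against WT 0 passed, where 0.0226% of all genes did; 1 had an unadjusted p under 0.05, and DESeq2 called 0. The medians were 0.08 for card1-1 and 0.48 for card1-2, on the log2 scale, and both comparisons share the WT mock libraries.

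The rank correlation of a gene's CPM with the share not unique over the 24 libraries differed within the 20 genes. It was 0.949 for ATMG00020, 0.937 for ATMG01390, 0.803 for ATMG01360 and 0.703 for ATMG00080. It was 0.667 for ATMG01380 and 0.630 for ATMG00090. The lowest was 0.0301, for ATMG00660, which had 166 counts in all. These are descriptions over libraries that share their depth and group, and a low gene's correlation is limited by its counts.

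The sums beside the mitochondrial genes behaved differently from one another. Plastid genes made up 1.04% ± 0.387 of gene counts in card1-1 DMBQ against 0.726% ± 0.350 in card1-1 mock, 0.975% ± 0.411 in card1-2 DMBQ against 0.690% ± 0.238 in card1-2 mock, and 0.524% ± 0.214 in WT DMBQ against 0.471% ± 0.111 in WT mock (SD, n = 4 each). The rows numbered AT2G07600 to AT2G07799, the stretch of chromosome 2 that holds the inserted mitochondrial copy, made up between 0.00448% and 0.00780% of gene counts in every library. Their mean share was 0.00645% ± 0.00116 in card1-1 DMBQ and 0.00557% ± 0.000923 in card1-1 mock, 0.00606% ± 0.00111 in card1-2 DMBQ and 0.00652% ± 0.00143 in card1-2 mock, and 0.00599% ± 0.00119 in WT DMBQ and 0.00594% ± 0.000590 in WT mock (SD, n = 4 each).

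Nuclear genes whose products work in the same complexes were followed as lists. Of 18 genes for complex I subunits, 2 rose and 1 fell in card1-1 with DMBQ by edgeR, where 3.55% of all genes rose and 3.17% fell, and the median log2 fold change was 0.38. The gene AT5G52840 rose (834.5 ± 82.6 CPM in card1-1 DMBQ, 472.7 ± 49.4 in card1-1 mock; SD, n = 4 each; log2 fold change 0.82, SE 0.13, edgeR adjusted p = 0.000131). The other was AT3G08610, with a log2 fold change of 0.87 (edgeR adjusted p = 0.00752). In WT with DMBQ and mock, AT5G52840 averaged 709.1 and 597.8 CPM. AT3G08610 averaged 86.8 and 47.7 CPM in card1-1 with DMBQ and mock, and 67.65 and 63.7 CPM in WT. Both genes thus had a lower mean in card1-1 mock than in WT mock. The part of this in their rise was not tested. GLDH, the last enzyme of ascorbate synthesis, which also takes part in complex I assembly, fell to 26.2 ± 16.8 CPM in card1-1 DMBQ, against 82.3 ± 63.5 CPM in card1-1 mock (SD, n = 4 each; log2 fold change -1.66, edgeR adjusted p = 0.0167). For WT its mean was 45.9 ± 2.98 CPM untreated and 41.2 ± 7.82 CPM when treated. For card1-2 it was 48.2 ± 10.7 CPM untreated and 39.96 ± 6.07 CPM when treated (SD, n = 4 each). Untreated card1-1 thus had the highest GLDH mean of the 6 groups and the widest spread, and treated card1-1 had the lowest mean. The part of the high and uneven untreated level in the fall of GLDH was not tested. Without the 3 libraries above 55% not unique, 1 of the 18 rose and 0 fell, and with the share not unique as a covariate the counts were the same. Over all genes tested in card1-1, 721 and 119 passed under these settings, in that order, against 1192 in the main fit. In card1-2 with DMBQ, 0 of the 18 passed edgeR's test, where 2.2% of all genes did. There 1 had an unadjusted p under 0.05, DESeq2 called 0, and the median was 0.01. At that share a count of 0 among 18 genes says little about this list.

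Of 23 nuclear genes for complexes II, III and IV, ATP synthase and cytochrome c, 5 rose and 0 fell in card1-1 with DMBQ (3.55% and 3.17% of all genes), with a median log2 fold change of 0.27. CYTC-2, a cytochrome c, which carries electrons to complex IV, averaged 27.7 ± 9.61 CPM in card1-1 DMBQ and 10.6 ± 4.49 CPM in card1-1 mock (SD, n = 4 each; log2 fold change 1.39, edgeR adjusted p = 0.00713). The other cytochrome c gene, CYTC-1, had a log2 fold change of 0.74 (edgeR adjusted p = 0.0349). The ATP synthase subunit genes ATP3 and ATP5 had 0.53 and 0.58 (edgeR adjusted p = 0.0194 and 0.0125), and AT4G37830, a cytochrome c oxidase subunit gene, had 0.93 (edgeR adjusted p = 0.00086). Each of these genes had a lower mean in card1-1 mock than in WT mock. CYTC-1 averaged 34.25 CPM in card1-1 mock and 48.35 in WT mock, but 57.1 CPM in card1-1 DMBQ and 55.2 in WT DMBQ. CYTC-2 averaged 12.4 CPM in WT mock and 10.5 in WT DMBQ. The part of the mock levels in these changes was not tested. In card1-2 with DMBQ, ATP5 was the 1 gene of the 23 that rose, where 1.07% of all genes did (220.4 ± 17.9 CPM in card1-2 DMBQ, 147.3 ± 10.2 in card1-2 mock; SD, n = 4 each; log2 fold change 0.58, edgeR adjusted p = 0.0232), and the median was 0.25. Without the libraries above 55% not unique, 3 of the 23 rose in card1-1 and 1 in card1-2. With the share not unique as a covariate, 0 rose in card1-1, where 10 had an unadjusted p under 0.05, and 1 in card1-2. Over all genes tested in card1-1, 630 rose in the main fit, 351 without those libraries and 89 with the covariate. In card1-2 these were 190, 163 and 200. The median of the 23 in card1-1 was 0.53 with the covariate.

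Of 9 nuclear genes for transcription, splicing and RNA turnover in mitochondria, 1 fell in card1-1 with DMBQ and 0 rose (3.17% and 3.55% of all genes), with a median log2 fold change of -0.66. It was AT5G46920, annotated as an intron maturase of the type II family, which averaged 10.6 ± 3.58 CPM in card1-1 DMBQ and 24.9 ± 6.16 CPM in card1-1 mock (SD, n = 4 each; log2 fold change -1.24, SE 0.29, edgeR adjusted p = 0.00641). Without the libraries above 55% not unique 1 of the 9 fell, and with the covariate 0 did, where 2 had an unadjusted p under 0.05. With the covariate the median was -0.945, and 119 of all genes passed in card1-1, against 1192 in the main fit. In card1-2 with DMBQ the median was -0.65; 0 of the 9 passed edgeR's test, 4 had an unadjusted p under 0.05 and DESeq2 called 1, which fell (1.13% of all genes fell by edgeR). Of 11 genes of alternative respiration, 5 were tested, and in both mutants with DMBQ 0 passed edgeR's test, 0 had an unadjusted p under 0.05 and DESeq2 called 0. Of all genes, 6.72% passed edgeR's test in card1-1 and 2.2% in card1-2. In WT with DMBQ, 0 genes of the 4 lists passed edgeR's test, where 1.03% of all genes did. None of them had an unadjusted p under 0.05, and DESeq2 called 0. In the comparisons without DMBQ and of the responses, 0 genes of the 4 lists passed edgeR's test, where 0% to 0.0564% of all genes did. There 0 to 4 in a list had an unadjusted p under 0.05, and DESeq2 called 0. DESeq2 gave no adjusted p to some listed genes and could not call those. In the response differences it gave one to 1 of the 5 genes of alternative respiration. Of the 9 above, it gave one to 4 for card1-1 and 3 for card1-2. With DMBQ in each mutant, 3 of the 5 had one. The DMBQ and mock ranges of the summed shoot markers were apart in card1-1 (higher with DMBQ) and overlapped in card1-2 and WT, as given above, and these markers were not tested for their part in the results of these lists or of the mitochondrial genes.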

How the data were processed

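Groups and replicate numbers of the 24 libraries come from the sample labels. Extraction and library preparation followed a published method by Townsley et al., per the labels' protocols. The sources used here do not describe RNA selection, strand or overlap mode, so overlapping or antisense genes cannot be told apart. The submitters' processing notes list HTSeq 0.6.1, TopHat2 2.1.1, TopHat, bcl2fastq 2.17, CASAVA and TAIR10, with no roles. The authors deposited raw whole-number read counts per gene, without normalization. Because the deposited columns also hold a single line of fractions, they were classed as estimated count values, and no gene value needed rounding. Library sizes and tests exclude the 9 lines that name no gene, among them the alignments not unique (17.3% to 66.5% of counted records).

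After filterByExpr (by group, minimum count 10, minimum total 15) 17734 genes remained, scaled by TMM. They were tested with edgeR 4.0.16 (R 4.3.3; quasi-likelihood, robust, two-sided) in 1 fit of 6 group terms over the 24 libraries. P-values were adjusted by Benjamini-Hochberg in each of 7 comparisons, and a gene passed at an adjusted p under 0.05. Alternatives were DESeq2 1.42.0, other scalings, no filter, the compared groups alone, a replicate block, the share not unique as a covariate, and each replicate left out. DESeq2 gave no adjusted p to some genes and could not call those, among them ATMG00690 and ATMG01370 with DMBQ in both mutants. Shares were compared by exact permutation of libraries, and related to the share not unique by 100000 permutations (scipy 1.17.1). Fits and permutations were tested on simulated data. The chi-square per degree of freedom between replicates was 3.78 to 29.2 over 36 pairs, so each library counted as a separate one.

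Values in every library are given for the 8 members with the highest mean CPM; up to 4 more past the threshold would have been added, and none qualified. Members and lists were chosen with earlier results of these data known. Words of 50 bases were compared between the chromosomes of TAIR10.1.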

Additional observations from a re-analysis of the deposited data

Results flagged for a closer look

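In 6 of 66 checks, each of 1 measure in 1 group of 4 libraries, 1 library stood so far from the other 3 that the gap exceeded Dixon's limit. Chance flags about 1 in 20 separate checks. ATMG00020 and ATMG01390 hold most of the mitochondrial share, so the 6 flags are not separate events and cannot be set against that rate. WT DMBQ replicate 2 stood above its group for the mitochondrial share (0.2096%, against 0.0767% to 0.0853% in the other 3), for ATMG00020 (990.6 CPM) and for ATMG01390 (927.5 CPM); its share not unique was 41.8%, against 29.7% to 31.5%. In card1-1 mock, replicate 3 stood above its group for ATMG00020 (928.7 CPM) and ATMG01390 (763 CPM); its share not unique was 32.4%, against 17.3% to 25.5%. In card1-2 DMBQ, replicate 3 stood above its group for the 18 genes other than these (0.03193% of gene counts); its share not unique was 61.1%, against 31.9% to 50.9%. In each of these cases the library also had the highest share not unique of its group, and the part of that share in these values was not tested.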

How the results depend on the processing

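Of the members called in card1-1 with DMBQ (3), the count was 5 with DESeq2, 1 with the compared groups alone, 1 without the libraries above 55% not unique, and 0 to 4 with each replicate left out; it was 3 with DESeq2's size factors, nuclear scaling and the replicate block, 2 without a filter and 3 with the share not unique as a covariate, of which 1 rose. In card1-2 with DMBQ (0) it was 2 with DESeq2, 1 with the covariate and 0 to 1 with replicates left out; in WT (0) it was 1, which fell, with the covariate. In the other 4 comparisons it was 0 under each alternative run. The covariate turned the log2 fold change in card1-1 for ATMG00020 (-1.12), ATMG01390 (-1.17), ATMG00080 (-1.07), ATMG00090 (-0.38), ATMG00690 (-0.35) and ATMG01360 (-1.19), and in card1-2 for ATMG00020 (-0.20), ATMG01390 (-0.25) and ATMG01370 (-0.063). It also turned the difference between card1-1 and WT for ATMG00020 (-0.24) and ATMG01390 (-0.67). The share not unique itself differs between these groups, and the cause was not tested. In card1-1 and WT its DMBQ and mock ranges do not overlap. The covariate fit there extends a slope and compares no libraries at an equal share. ATMG01370 in card1-2 ran from -0.092 to 0.516 with replicates left out. The mitochondrial share kept its direction in card1-1 (0.253 to 0.478 points with replicates left out) and card1-2 (0.0601 to 0.303) with DMBQ and in untreated card1-2 (0.0287 to 0.0714). It reversed in WT (-0.00808 to 0.0362 with replicates left out; -0.000353 without ATMG00020 and ATMG01390) and in untreated card1-1 (-0.0263 to 0.0186). The relation of both shares held under the 6 alternatives run (r 0.853 to 0.964).

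Genes called over all genes tested, from the main fit: 182 (WT response), 1192 (card1-1 response), 390 (card1-2 response), 0 and 4 (untreated card1-1 and card1-2), 10 and 5 (response differences of card1-1 and card1-2). These were, in that order, 349, 288, 195, 0, 19, 12 and 12 with the compared groups alone; 159, 119, 361, 0, 2, 2 and 11 with the covariate; 241, 1559, 615, 6, 11, 99 and 56 with DESeq2; 188, 1059, 378, 1, 7, 16 and 5 without a filter; 207, 721, 354, 3, 5, 31 and 9 without the libraries above 55% not unique; and with replicates left out 117 to 167, 618 to 1179, 211 to 553, 0 to 1, 1 to 4, 7 to 39 and 1 to 10. With the replicate block they were 234, 1359, 528, 6, 12, 58 and 12. Same-numbered replicates correlated at -0.0182 to 0.235 in their deviations, and in no comparison were all pairs over 0.1. The main fit did not pair samples by number. These correlations were not set against a reference level, so they cannot exclude a pairing. Under the block, the share differed by 0.389 points in card1-1 with DMBQ (exact sign-flip permutation p = 0.125, the smallest possible). The planned sum without ribosomal RNA genes was not run, as the reference gives these codes no class; the sum without ATMG00020 and ATMG01390, the fits without libraries above 55% not unique, and the all-record and log2 shares were chosen after seeing the data.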

Other observations

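ATMG01220, which did not pass the filter on low counts, had counts in 4 of 8 card1-1 libraries and in 5 of 8 card1-2 libraries, and in 0 of 8 WT libraries. The counts in card1-1 were 6, 0, 0 and 0 with DMBQ and 21, 1, 0 and 3 in mock, and those in card1-2 were 0, 5, 20 and 3 with DMBQ and 1, 0, 0 and 2 in mock. Summed over libraries, this was 31 counts in each mutant (1.27 CPM of the summed gene counts in card1-1 and 1.1 in card1-2). A count of 0 over the 8 WT libraries allows up to 0.0909 CPM (3 counts over their summed gene counts). The gene was singled out after its values were seen, was not tested, and rested on 1 library for most of its counts in each mutant. How many other gene rows of a similar total lack counts in all WT libraries was not computed. No difference between genotypes is therefore read from these counts.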
